A study of Homo sapiens with 12 samples.

Results

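Transcript levels of 8 genes that detect or edit double-stranded RNA were followed in C4-2, a castration-resistant prostate cancer cell line. The genes were RIGI (older name DDX58), IFIH1, DHX58, MAVS, TLR3, EIF2AK2, ADAR and ZBP1, and all 8 were found by symbol among the 20308 genes of the expression table. The cells carried either an ALKBH5 overexpression construct (oeALKBH5) or an empty vector (NC), where ALKBH5 is an enzyme that strips the m6A mark (N6-methyladenosine) off RNA. The labels give no promoter, clone or time for the construct, name no other treatment, and do not say whether the 3 replicates of each group were separate cultures, so the errors measure only the spread between libraries, which may be technical. Of 12 libraries, the 6 inputs, made without m6A pull-down, gave the expression values used here, 3 of oeALKBH5 and 3 of NC. The set was chosen by a measured value, the FPKM of RIGI, which stood far higher in oeALKBH5 than in NC input RNA. The differences of the 8 genes in that contrast are therefore given as a description, with no test of their own.

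Cells detect viral or misplaced cellular double-stranded RNA through several kinds of protein. RIG-I, MDA5 and LGP2, the products of RIGI, IFIH1 and DHX58, are related cytosolic helicases; RIG-I and MDA5 signal through the mitochondrial adaptor MAVS to induce interferon, and LGP2, which lacks the signalling domains, modulates them. TLR3 reads double-stranded RNA in endosomes, PKR, the product of EIF2AK2, phosphorylates the initiation factor eIF2 alpha and so restrains translation, ZBP1 binds left-handed Z-form nucleic acid and can trigger necroptosis, and ADAR edits adenosine to inosine in double-stranded RNA, which keeps cellular RNA from being sensed. Most of these genes are themselves known to be induced by interferon, which acts on promoters through the interferon-stimulated response element.

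The expression values are FPKM, fragment counts normalized for transcript length and library size, as deposited by the authors. Their sums ranged from 511333 to 512996 FPKM in oeALKBH5 libraries and from 514140 to 524905 FPKM in NC libraries. Read counts were not used here, so absolute depth is unknown. Among low genes, the ratio to NC replicate 1 that occurred most often put the depth of oeALKBH5 replicates 2 and 3 at 0.785 and 0.829 of NC replicate 1, against 1.07 for oeALKBH5 replicate 1, 1.13 for NC replicate 2 and 1.00 for NC replicate 3; these ratios rested on 88 to 157 of 798 to 1012 low genes. ALKBH5 itself had 80.3, 74.3 and 72.5 FPKM in oeALKBH5 and 64.9, 61.1 and 58.2 FPKM in NC libraries. These groups did not overlap, with higher values in oeALKBH5, as for 15.1% of all tested genes. The oeALKBH5 mean was 1.23 times the NC mean. ALKBH5 did not pass the limma threshold (adjusted p = 0.114), nor under any of the 14 alternative settings. Of 7 luminal prostate markers, KLK3 and FOLH1 among them, all passed the filter. KRT8, a luminal keratin, rose and 6 did not pass the test, beside 3.02% of all tested genes called higher. KRT8, TMPRSS2, KLK2 and FOLH1 had an unadjusted limma p under 0.05, all 4 higher in oeALKBH5. FOLH1, the last of these, ranked 2639th of 12757 tested genes by p. KRT8 had 220, 212 and 238 FPKM in oeALKBH5 and 128, 138 and 145 FPKM in NC libraries (limma log2 fold change 0.70, SE 0.08, adjusted p = 0.0024). The 7 markers summed to 2033 to 2237 FPKM in oeALKBH5 and 1989.5 to 2007 FPKM in NC libraries, and KLK3 alone averaged 943 FPKM in oeALKBH5 and 1004 FPKM in NC libraries. The 11 immune cell markers summed to 4.87 to 8.28 FPKM in oeALKBH5 and 1.40 to 5.26 FPKM in NC libraries. MS4A1, CLEC4C and NKG7 were at 0 in all 6 libraries, 4 of the 11 were tested and none was called by limma. Of these 4, 1, CD3D, had an unadjusted limma p under 0.05 (adjusted p = 0.111), and ranked 1429th of 12757 tested genes by p. CD3D and LYZ passed the filter on low values only through their oeALKBH5 libraries. CD3D, a T cell receptor subunit, had 1.27, 1.70 and 2.53 FPKM in oeALKBH5 and 0.524, 0 and 0.527 FPKM in NC libraries, and the pan-leukocyte marker PTPRC had 0.213, 0.29 and 0.456 FPKM in oeALKBH5 and 0, 0.0668 and 0 FPKM in NC libraries. The groups of both did not overlap. LYZ, the lysozyme of myeloid cells, had 2.95, 1.93e-06 and 3.999 FPKM in oeALKBH5 and 0.396, 0 and 0 FPKM in NC libraries. CD3E and FCER1G averaged lower, at 0.691 and 0.39 FPKM in oeALKBH5 against 1.14 and 0.929 FPKM in NC libraries. Of 6 fibroblast markers, DCN and LUM were at 0 in all 6 libraries, and the list summed to 4.08 to 28.1 FPKM in oeALKBH5 and 4.05 to 13.1 FPKM in NC libraries. Most of that sum was COL1A1, a collagen, at 2.17, 27.6 and 8.08 FPKM in oeALKBH5 and 12.2, 4.79 and 3.43 FPKM in NC libraries. PDGFRB averaged 0.839 FPKM in oeALKBH5 and 0.619 FPKM in NC libraries. The groups of both overlapped. Whether other cells had a part in the results below was not tested, and in bulk RNA fewer cells of a type and less RNA per cell cannot be told apart.

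The promoters of the sensors are shown because their windows differ in letter matches to elements that interferon and NF-kB factors are known to use. RefSeq promoter windows of GRCh38.p14, from 250 bases before to 50 after a start, matched 6 of the 8 genes: RIGI, IFIH1, MAVS, TLR3, EIF2AK2 and ADAR. These windows were searched on both strands for the core of the interferon-stimulated response element, GAAA followed by any 2 bases and GAAA again, for the STAT site GAS, TTCNNNGAA, and for the NF-kB consensus. Each stretch below runs from 180 bases before the start to 10 after it, and capitals mark every match.
RIGI, chr9:32526187-32526376, - strand: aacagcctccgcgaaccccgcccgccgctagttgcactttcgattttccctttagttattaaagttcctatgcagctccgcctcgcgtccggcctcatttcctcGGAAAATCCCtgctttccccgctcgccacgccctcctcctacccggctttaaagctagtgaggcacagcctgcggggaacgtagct
IFIH1, chr2:162318675-162318864, - strand: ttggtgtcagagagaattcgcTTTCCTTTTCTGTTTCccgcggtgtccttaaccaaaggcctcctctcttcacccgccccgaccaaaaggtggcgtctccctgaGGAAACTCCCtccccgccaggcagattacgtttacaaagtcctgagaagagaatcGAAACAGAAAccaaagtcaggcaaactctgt
TLR3, chr4:186068976-186069165, + strand: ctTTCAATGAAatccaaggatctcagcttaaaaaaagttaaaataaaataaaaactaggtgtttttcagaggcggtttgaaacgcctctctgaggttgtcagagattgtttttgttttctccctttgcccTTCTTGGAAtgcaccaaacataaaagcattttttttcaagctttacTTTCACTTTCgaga
EIF2AK2, chr2:37156971-37157160, - strand: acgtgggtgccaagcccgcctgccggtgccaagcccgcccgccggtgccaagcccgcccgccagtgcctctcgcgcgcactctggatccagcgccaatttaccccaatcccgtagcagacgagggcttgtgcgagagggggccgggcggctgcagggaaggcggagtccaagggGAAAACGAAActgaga
The IFIH1 stretch held the interferon element 3 times, overlapping at positions -159 to -150 and -153 to -144, and again at -21 to -12, counted from the start. In TLR3 and EIF2AK2 the element lay across the start, at -4 to 6 and -6 to 4. The RIGI stretch held no match to these letters, and an NF-kB consensus lay at -76 to -67, the same positions as in IFIH1. GAS matches lay in TLR3 at -178 to -170 and -50 to -42. The MAVS window and the 3 ADAR windows held none of the 3 motifs. Of all 35116 promoter windows, 3.57% held the interferon element, 7.66% the GAS site and 5.91% the NF-kB consensus. A match describes letters and not a bound site, and no match says only that these letters are not in this window.

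RIGI and IFIH1, the helicases that signal through MAVS, were both higher in oeALKBH5 than in NC libraries, RIGI by 12.9 times and IFIH1 by 2.77 times as ratios of mean FPKM. DHX58 and TLR3 also averaged higher, by 3.19 and 2.72 times, and did not pass the limma threshold. The groups of DHX58 overlapped, and TLR3 was low in both groups. ADAR and MAVS had like means in both groups, and EIF2AK2 averaged lower in oeALKBH5. ZBP1 was at or near 0 throughout.

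**Figure D1:**
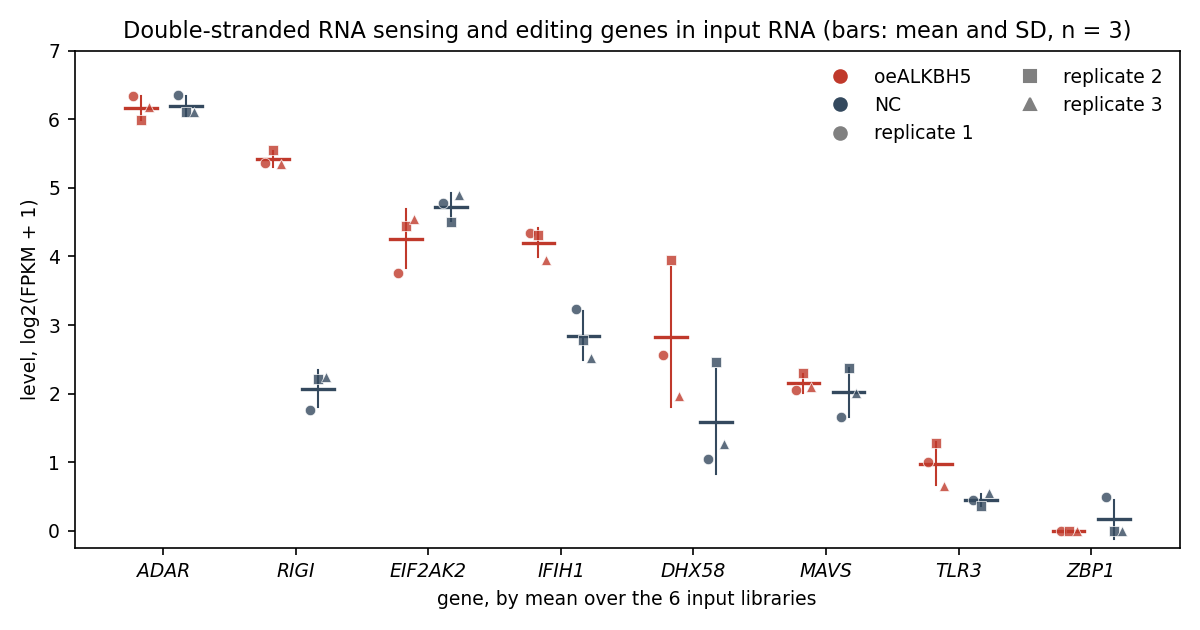
Level of each gene on the log2(FPKM + 1) axis in 3 oeALKBH5 (left, red) and 3 NC (right, blue-grey) input libraries, with symbols for the replicate numbers and bars for the mean and SD. RIGI shows the widest gap between the groups, at 41.9 FPKM in oeALKBH5 and 3.26 FPKM in NC libraries on average, while ADAR, the highest gene, overlaps.

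RIGI (ENSG00000107201) encodes the sensor of short double-stranded RNA with a 5' triphosphate end. It had 40.3, 45.8 and 39.7 FPKM in oeALKBH5 replicates 1, 2 and 3, against 2.39, 3.63 and 3.75 FPKM in NC replicates 1, 2 and 3. Every oeALKBH5 library lay above every NC library, and the spread within each group was small beside the gap. The log2 fold change was 3.35 (SE 0.19, 95% interval 2.91 to 3.78), which ranked RIGI 11th highest of 12757 tested genes. It ran from 3.19 to 3.43 when any 1 library was left out.

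IFIH1 (ENSG00000115267) encodes MDA5, the sensor of long double-stranded RNA. Its level was 19.2, 18.9 and 14.5 FPKM in oeALKBH5 libraries, against 8.37, 5.90 and 4.73 FPKM in NC libraries. The groups did not overlap, and the lowest oeALKBH5 library stood above the highest NC library. Its log2 fold change, 1.36 (SE 0.23, 95% interval 0.83 to 1.88), was the 158th highest of all tested genes. It was 1.29, 1.30 and 1.19 without oeALKBH5 replicate 1, oeALKBH5 replicate 2 and NC replicate 3. In each of these fits IFIH1 missed the limma threshold over all genes.

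DHX58 (ENSG00000108771), which encodes LGP2, was measured less evenly. It had 4.90, 14.4 and 2.89 FPKM in oeALKBH5 libraries and 1.06, 4.50 and 1.40 FPKM in NC libraries. The groups overlapped, and replicate 2 was the highest library in each of them. The log2 fold change of 1.23 (SE 0.54, 95% interval 0.00218 to 2.47) moved to 0.67 without oeALKBH5 replicate 2 and to 1.67 without NC replicate 2. Differences between libraries with the same replicate number were 1.52, 1.49 and 0.70 on the log2 scale, although the replicate numbers did not pair the libraries over all genes.

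The make-up of the helicase family differed between the groups, since RIGI was so much higher. FPKM are per length, so levels of the 3 helicases can be set side by side. Summed, they reached 64.4, 79.1 and 57.1 FPKM in oeALKBH5 libraries and 11.8, 14.03 and 9.87 FPKM in NC libraries. RIGI made up 62.6%, 57.9% and 69.5% of that sum in oeALKBH5 libraries, against 20.2%, 25.9% and 38.0% in NC libraries. IFIH1 made up 29.8%, 23.9% and 25.4% in oeALKBH5 libraries and 70.8%, 42.0% and 47.9% in NC libraries. RIGI thus exceeded IFIH1 in all 3 oeALKBH5 libraries, by 2.10, 2.43 and 2.73 times, and lay below it in all 3 NC libraries, at ratios of 0.285, 0.616 and 0.793. These shares follow from the values that chose the set.

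**Figure D2:**
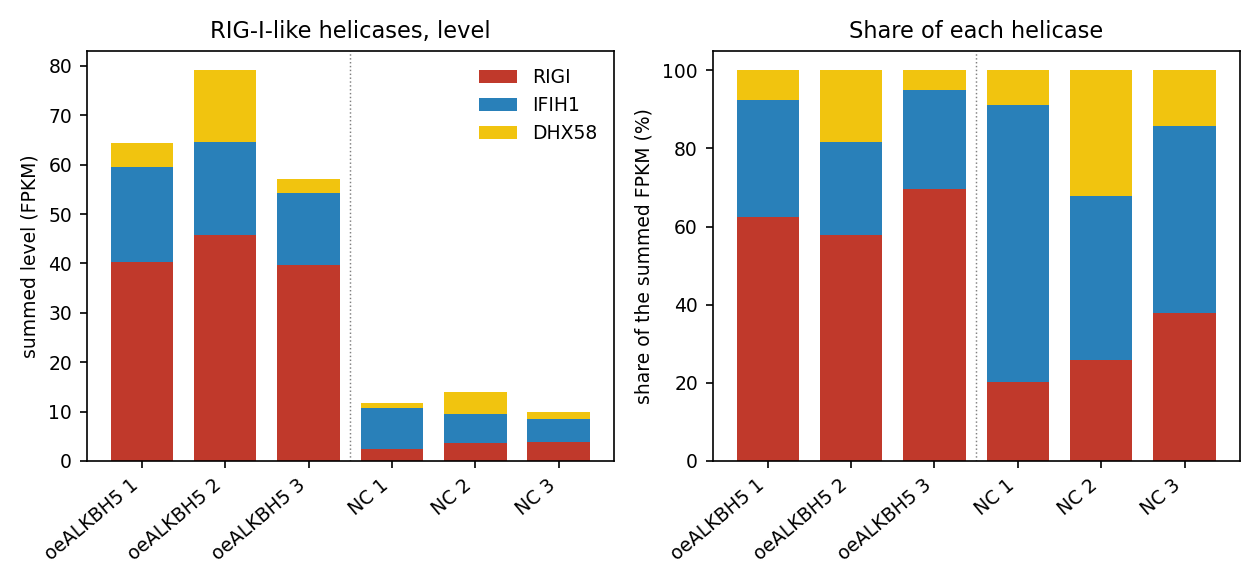
Summed FPKM of the RIG-I-like helicases in each input library (left panel) and the share of RIGI, IFIH1 and DHX58 in that sum (right panel), with the oeALKBH5 libraries left of the dotted line and the NC libraries right of it. RIGI holds 57.9% to 69.5% of the sum in oeALKBH5 libraries and 20.2% to 38.0% in NC libraries.

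MAVS (ENSG00000088888), the adaptor that RIG-I and MDA5 share, had 3.16, 3.95 and 3.25 FPKM in oeALKBH5 libraries and 2.17, 4.18 and 3.03 FPKM in NC libraries. All oeALKBH5 values fell within the NC range. Its difference of 0.13 on the log2 scale (SE 0.27, 95% interval -0.49 to 0.75) changed sign under quantile normalization and without NC replicate 1. Relative to its adaptor, RIGI stood at 12.8, 11.6 and 12.2 times the MAVS level in oeALKBH5 libraries and at 1.10, 0.869 and 1.24 times in NC libraries.

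TLR3 (ENSG00000164342), the endosomal receptor, was low. It had 1.01, 1.43 and 0.575 FPKM in oeALKBH5 libraries and 0.358, 0.287 and 0.460 FPKM in NC libraries. The groups did not overlap, but the lowest oeALKBH5 value was close to the highest NC value. TLR3 passed the filter of 0.5 FPKM only through oeALKBH5, with means of 1.00 FPKM there and 0.368 FPKM in NC libraries. A filter of 1 FPKM left it untested. Its estimated difference on the log2 scale was 0.53 (SE 0.33, 95% interval -0.21 to 1.27), and at such low levels the pseudocount set its size, at 1.17 with a pseudocount of 0.1 and 0.16 with 5. ZBP1 (ENSG00000124256), the Z-form nucleic acid sensor, was listed at 0 in all 3 oeALKBH5 libraries and at 0.408, 0 and 0 FPKM in NC libraries. Its mean lay under the filter of 0.5 FPKM, so it was not tested.

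EIF2AK2 (ENSG00000055332) encodes PKR, the effector kinase. It had 12.6, 20.9 and 22.5 FPKM in oeALKBH5 libraries and 26.4, 21.6 and 28.9 FPKM in NC libraries. oeALKBH5 replicate 1 was the lowest library and the groups overlapped. The log2 fold change of -0.47 (SE 0.22, 95% interval -0.98 to 0.04) moved to -0.22 without oeALKBH5 replicate 1. EIF2AK2 was the only 1 of the 7 tested genes whose estimate was below -0.1 with all libraries. Its promoter window holds a letter match to the interferon element, as printed above, as do those of IFIH1 and TLR3. Whether these matches have a part in the levels was not tested.

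ADAR (ENSG00000160710) had 80.1, 62.5 and 71.4 FPKM in oeALKBH5 libraries and 81.2, 68.1 and 67.9 FPKM in NC libraries. The groups overlapped, and replicate 1 was the highest library in each. The log2 fold change was -0.02 (SE 0.12), and its 95% interval of -0.30 to 0.26 leaves room for a difference of that size in either direction. The sign turned under quantile normalization, without oeALKBH5 replicate 2 and without NC replicate 1. ADAR makes a long cytoplasmic isoform, known to be interferon-inducible, and a shorter, constitutive, mainly nuclear isoform; the gene value does not separate them, and editing itself was not measured. The level of ADAR relative to RIGI was 1.99, 1.36 and 1.80 in oeALKBH5 libraries and 34.0, 18.8 and 18.1 in NC libraries.

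By mean level, the order in oeALKBH5 libraries was ADAR, RIGI, EIF2AK2, IFIH1, DHX58, MAVS, TLR3 and ZBP1. In NC libraries it was ADAR, EIF2AK2, IFIH1, RIGI, MAVS, DHX58, TLR3 and ZBP1. Neighbours whose libraries overlapped were EIF2AK2 with IFIH1 and DHX58 with MAVS in oeALKBH5. In NC they were RIGI with MAVS, MAVS with DHX58, and TLR3 with ZBP1.

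Of the 8 genes, 7 passed the filter on low values, and 2, RIGI and IFIH1, passed the threshold of limma over all genes, both higher in oeALKBH5. Without oeALKBH5 replicate 1, oeALKBH5 replicate 2 or NC replicate 3 the count was 1, since IFIH1 missed the threshold. Among all 12757 tested genes, 3.02% were called higher, 2.43% lower and 5.45% in either direction. RIGI, IFIH1 and TLR3 had groups that did not overlap, with higher values in oeALKBH5, as did 15.1% of all tested genes. Of these 3, TLR3 was tested only because its oeALKBH5 values lifted its mean over the filter. Since the same contrast chose the set, nothing is read from these counts.

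**Figure D3:**
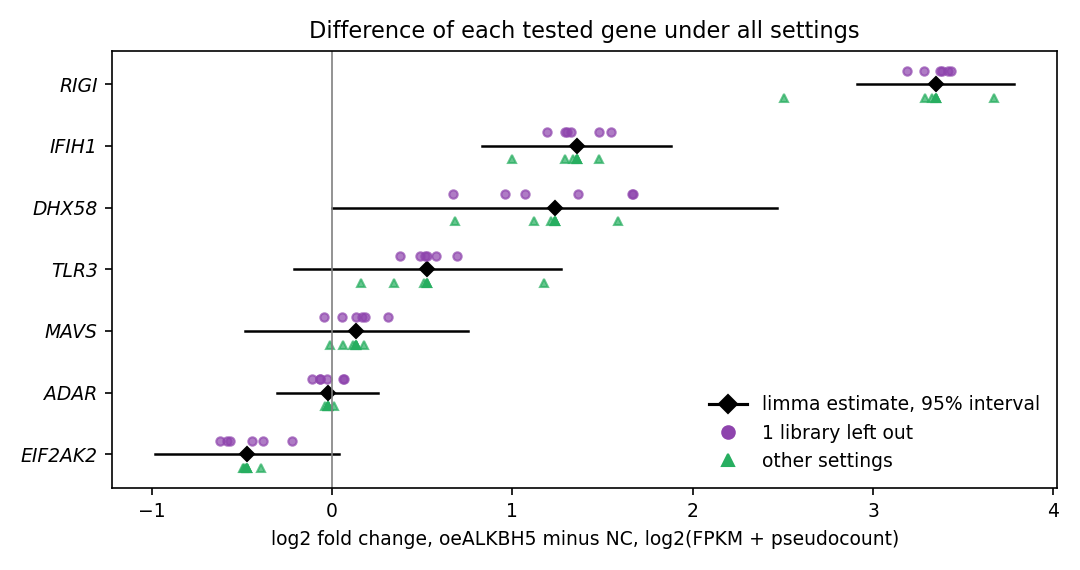
Difference of the 7 tested genes, oeALKBH5 minus NC, on the log2 axis: black diamonds and lines are the limma estimate and its 95% interval, purple circles leave out 1 library, and green triangles are the other settings. RIGI stays between 2.51 and 3.67 and IFIH1 between 1.00 and 1.55, while the estimates of ADAR and MAVS fall on both sides of 0.

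The genes whose log2(FPKM + 1) followed RIGI most closely over the 6 input libraries were YPEL2, ASPH, MKNK2, STXBP5 and NPC1, with Pearson correlations of 0.998, 0.997, 0.997, 0.997 and 0.997. The libraries share the gap between the groups, which sets most of each correlation. MKNK2, a kinase of the initiation factor eIF4E, had 227, 251 and 236 FPKM in oeALKBH5 and 91.9, 97.1 and 95.3 FPKM in NC libraries. NPC1, a lysosomal cholesterol transporter, had 103, 109 and 104 FPKM in oeALKBH5 and 62.3, 66.6 and 70.1 FPKM in NC libraries. Within the set, RIGI correlated with IFIH1 at 0.92, with TLR3 at 0.83 and with DHX58 at 0.69, and with EIF2AK2 at -0.64 over the same 6 libraries.

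Genes around the sensors were counted by lists of their roles, to be read beside the 3.02% of all tested genes called higher and the 2.43% called lower. In the RIG-I-like receptor and MAVS signalling list of 30 genes, 27 were tested and ZCCHC3, IKBKE and IKBKG were not matched. ZC3HAV1, the zinc finger antiviral protein, rose, and 26 did not pass the test. It had 95.6, 105 and 89.7 FPKM in oeALKBH5 libraries, against 57.4, 50.9 and 55.3 FPKM in NC libraries (log2 fold change 0.81, SE 0.10, limma adjusted p = 0.0036). IRF3, the transcription factor that MAVS signalling activates, had 41.0, 17.5 and 29.3 FPKM in oeALKBH5 and 43.9, 53.3 and 53.5 FPKM in NC libraries. Its groups did not overlap, as for 28.1% of all tested genes in either direction. Its log2 fold change of -0.83 (SE 0.26) did not pass (limma adjusted p = 0.106). IRF3 passed without oeALKBH5 replicate 1, which was nearest to NC (adjusted p = 0.0422). TBK1, the kinase of IRF3, and the ubiquitin ligase MEX3C did not pass either, with log2 fold changes of 0.34 and 0.26. The median log2 fold change of the list was 0.05, against 0.02 for all tested genes.

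In the list of TLR3 and ZBP1 signalling partners, 13 of 14 genes were tested and none was called by limma. Of these, 1, MAP2K6, had an unadjusted limma p under 0.05, and ranked 2608th of 12757 tested genes by p. MAP2K6, a kinase upstream of p38, had 11.9, 11.7 and 9.57 FPKM in oeALKBH5 and 13.6, 18.3 and 14.2 FPKM in NC libraries (limma adjusted p = 0.21). RIPK3, the kinase through which ZBP1 drives necroptosis, was listed at 0 in all 6 libraries. The kinase RIPK1 and the adaptors TAB2 and TAB3 had log2 fold changes of -0.29, 0.20 and 0.27. The median of the list was -0.13.

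Around PKR, 14 genes were tested, among them genes of eIF2 alpha phosphorylation and stress granules and others such as NFKBIA. PPP1R15A rose and 13 did not pass. PPP1R15A, or GADD34, directs the dephosphorylation of eIF2 alpha and so opposes PKR. It had 10.1, 12.7 and 13.0 FPKM in oeALKBH5 libraries, against 4.03, 1.504 and 2.01 FPKM in NC libraries (log2 fold change 1.94, SE 0.29, limma adjusted p = 0.00874). With a pseudocount of 5 this estimate was 1.18, and with 0.1 it was 2.31. EIF2S1, the eIF2 alpha subunit itself, had 93.1, 69.4 and 76.4 FPKM in oeALKBH5 and 113, 114 and 95.02 FPKM in NC libraries, a log2 fold change of -0.43 that did not pass (limma adjusted p = 0.0922). EIF2B1, a subunit of the exchange factor eIF2B, and NFKBIA, the inhibitor of NF-kB, had log2 fold changes of -0.37 and 0.21 and did not pass. The related kinases EIF2AK1, EIF2AK3 and EIF2AK4, named here for kinship after their values were seen, averaged 71.7, 27.5 and 28.4 FPKM in oeALKBH5 and 69.2, 18.6 and 29.8 FPKM in NC libraries. The median of the list was -0.02.

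The list on double-stranded RNA binding, editing, processing and removal had 24 tested genes. DDX60 rose, DHX9, DROSHA and AIMP2 fell, and 20 did not pass. A role of AIMP2 in such RNA was not examined here. Of all tested genes, 3.02% were called higher and 2.43% lower. DDX60, an interferon-inducible helicase reported to promote RIG-I-like receptor signalling, had 10.2, 8.01 and 6.94 FPKM in oeALKBH5 libraries, against 1.08, 1.11 and 2.48 FPKM in NC libraries (log2 fold change 1.905, SE 0.29, limma adjusted p = 0.00917). With pseudocounts of 5 and 0.1 its log2 fold change was 1.03 and 2.44. DHX9, a nuclear helicase that unwinds double-stranded RNA, had 60.3, 59.7 and 60.8 FPKM in oeALKBH5 libraries, against 94.5, 89.1 and 98.4 FPKM in NC libraries (log2 fold change -0.63, SE 0.09, limma adjusted p = 0.0061). For neither gene did the groups overlap, as for 28.1% of all tested genes in either direction. The NC spread of DDX60 came from NC replicate 3.

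DROSHA, the nuclease that cuts primary microRNA hairpins, had 49.8, 38.9 and 46.1 FPKM in oeALKBH5 and 73.7, 79.1 and 60.9 FPKM in NC libraries (log2 fold change -0.65, limma adjusted p = 0.0317). Leaving out a library ended the call for oeALKBH5 replicates 2 and 3 (adjusted p = 0.0819 and 0.0787) and for NC replicates 1 and 2 (adjusted p = 0.096 and 0.0993). The call also ended without the filter, without the intensity trend and with the replicate number as a block. DROSHA thus kept its call in 7 of 14 alternatives. AIMP2, a scaffold of the aminoacyl-tRNA synthetase complex, had 43.5, 32.3 and 41.0 FPKM in oeALKBH5 and 53.4, 60.7 and 57.9 FPKM in NC libraries (log2 fold change -0.56, limma adjusted p = 0.0491). It missed the threshold whichever of the 6 libraries was left out (adjusted p from 0.0588 without oeALKBH5 replicate 1 to 0.154 without NC replicate 3). AIMP2 kept its call in 3 of 14 alternatives, and lost it also with a pseudocount of 0.1 and under quantile normalization. The second adenosine deaminase, ADARB1, named after its values were seen, averaged 13.9 FPKM in oeALKBH5 and 10.99 FPKM in NC libraries and did not pass. ADARB2 and ADAD2 were listed at 0 in all 6 libraries. The median of this list was -0.02.

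**Figure D4:**
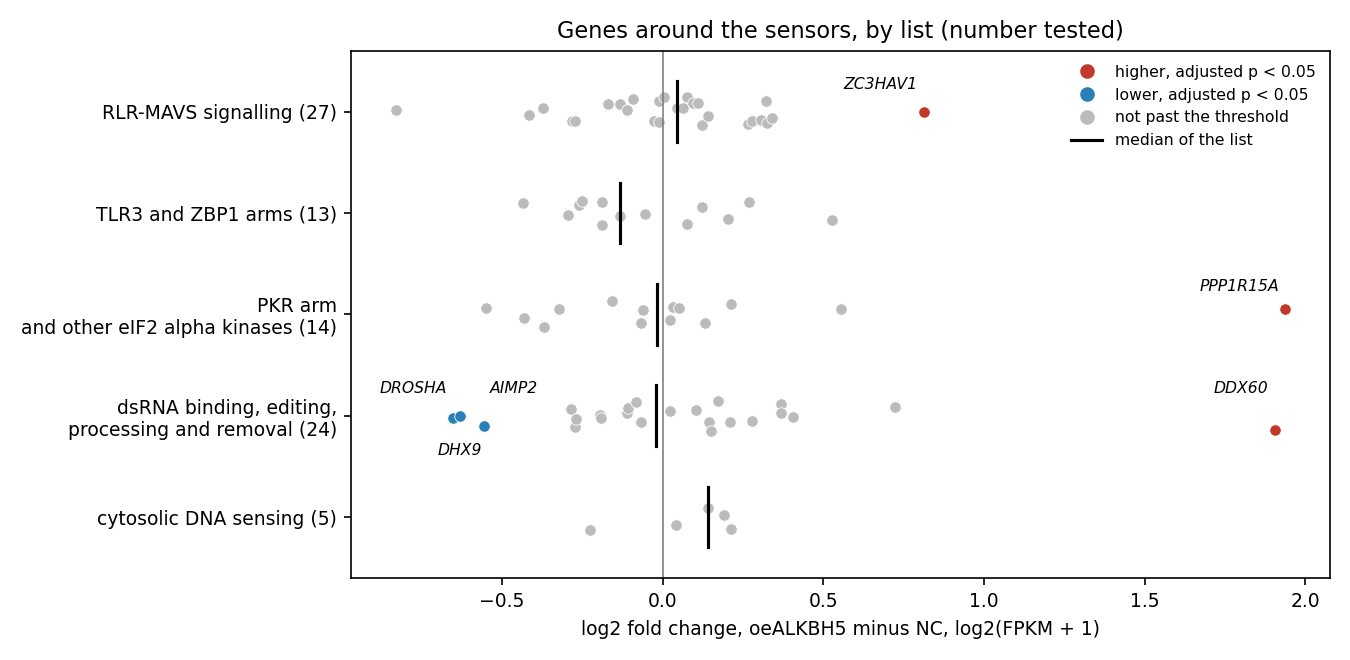
Log2 fold change, oeALKBH5 minus NC, of each tested gene in the lists around the sensors; red and blue points passed the limma threshold over all genes as higher and lower in oeALKBH5, grey points did not, and black bars are list medians. The medians lie between -0.13 and 0.14, and PPP1R15A and DDX60 stand apart at 1.94 and 1.905, sizes that depend on the pseudocount.

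Cytosolic DNA sensing is the neighbouring innate pathway. Of 9 genes, CGAS, STING1, AIM2 and PYCARD lay under the filter, 5 were tested and none was called by limma. Of the 5, 1, PRKDC, had an unadjusted limma p under 0.05 (log2 fold change -0.23, adjusted p = 0.127). It ranked 1657th of 12757 tested genes by p. PRKDC, the catalytic kinase subunit of DNA-PK, was the highest of them, at 118, 112 and 109 FPKM in oeALKBH5 and 130.1, 132 and 136 FPKM in NC libraries. CGAS, the enzyme that senses DNA, had at most 0.237 FPKM in oeALKBH5 and 0.113 FPKM in NC libraries. STING1, its adaptor, had 1.44, 0.59 and 0 FPKM in oeALKBH5 and 0.437, 0.409 and 0 FPKM in NC libraries. The other tested genes, DDX41, MRE11, TREX1 and IFI16, had groups that overlapped. A test of the difference between the RNA and DNA sensing genes was not made.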

How the data were processed

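Input RNA of C4-2 cells was measured in 3 oeALKBH5 and 3 NC libraries. Libraries were made after ribosomal RNA removal, per the labels' protocols, and read as 150 base paired ends; the kits named for library preparation differ within the text. Build hg19, HISAT2 2.0.4, cutadapt 1.9.3, Cufflinks and Cuffdiff appear in the submitters' processing notes, without role or order. The authors deposited 1 table, taken as FPKM from these tools and its values, since it names no unit. The m6A peak lists name no gene and use hg19 coordinates; with no hg19 annotation at hand they were not used here.

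Of 20308 genes, 19434 had a symbol. The 12757 genes whose mean reached 0.5 FPKM were fitted as log2(FPKM + 1) with limma 3.58.1 (R 4.3.3) with an intensity trend, with Benjamini-Hochberg adjustment over them all and a threshold of 0.05. Fold changes are oeALKBH5 minus NC and understate low genes. Values above 0 and under 1e-06, taken as failed estimates, occurred in 431 genes and in none of the 8.

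The 8 genes and all lists were chosen with earlier results of these data known. Named by rule were the 8 genes, up to 4 genes per list by smallest p, the 5 genes averaging 1 FPKM or more and most correlated with RIGI, and ALKBH5. Other genes were named outside this rule, some after their values were seen. Among them are the cell type markers and the list genes at 0 or under the filter. Some genes of the marker lists are not reported here. The 14 alternatives were pseudocounts of 0.1 and 5, no filter, a filter of 1 FPKM, quantile normalization, median scaling, no trend, the replicate number as a block, and each library left out. Motifs were searched with Python 3.11.15 and pandas 2.3.3, and figures drawn with matplotlib 3.10.9.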

Additional observations from a re-analysis of the deposited data

How the results depend on the processing

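The 8 genes were chosen on this contrast, so their values under the alternatives are a description. Log2 fold changes of RIGI ran from 2.51 (pseudocount 5) to 3.67 (pseudocount 0.1), those of IFIH1 from 1.19 to 1.55 with 1 library left out, and the number of the 8 genes called higher ran from 1 to 2. DHX58, TLR3 and EIF2AK2 kept their signs under every alternative that tested them. The log2 fold change of MAVS turned to -0.013 under quantile normalization and to -0.042 without NC replicate 1, and ran from -0.042 to 0.31 with 1 library left out. That of ADAR turned to 0.011 under quantile normalization, 0.067 without oeALKBH5 replicate 2 and 0.061 without NC replicate 1, and reached -0.11 with another library left out. TREX1 turned to -0.043 without oeALKBH5 replicate 2 and -0.21 without NC replicate 1, and reached 0.44.

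Over all genes, 385 were called higher and 310 lower. Without the intensity trend 198 and 72 were called, and without the filter 258 and 163. With 1 library left out, 156 to 226 were called higher and 76 to 210 lower. In the list on double-stranded RNA binding, editing, processing and removal, the number called lower was 3, AIMP2 among them. That number was 0 without the trend, 1 without the filter, and 1 to 2 with 1 library left out. DHX9 missed the threshold without the trend (limma adjusted p = 0.0521). In the RIG-I-like receptor and MAVS list, 0 to 1 were called lower with 1 library left out.

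With the replicate block, 203 genes were called higher and 141 lower, and 1 gene of the double-stranded RNA binding list was called lower. The replicate numbers did not pair the libraries: deviations from the group means correlated at -0.02, -0.02 and 0.03 between libraries of the same number, and not every library correlated best with its own number. Of 447 values under alternatives of the 32 tested genes named by rule, ALKBH5 not among them, 415 kept direction and side of the threshold. Depth is unknown, so how far it limits low genes such as TLR3 and ZBP1 cannot be given. Gene values do not separate isoforms or overlapping genes. The causes of these changes were not tested. The planned m6A peak counts at the 8 genes, with a score limit and a stricter overlap as alternatives, and the protein comparison were not run.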
